A study of Homo sapiens with 2 samples.

Results

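The genes examined here are 9 regulators of entry into S phase: the E-type cyclin genes CCNE1 and CCNE2, the cyclin-dependent kinase gene CDK2, the phosphatase gene CDC25A, the transcription factor genes E2F1, E2F2, E2F3 and E2F8, and the pocket protein gene RBL1. They were selected on earlier results of the same 2 arrays, so their differences are given as a description. Each was read through every probe set (a group of probes for 1 transcript target) whose only annotated symbol was that gene, 22 of the 45278 probe sets with 1 symbol and 9 of 18244 genes. The arrays held total RNA of MDA-MB-231, a human breast cancer line of basal and mesenchymal character. The control array came from the parental cells and the knockdown array from a single clone in which UGT8, the ceramide galactosyltransferase gene, was stably reduced. Both were grown in medium with 5.6 mmol/L glucose and harvested 48 h after passage, and 6 ug of RNA was labelled for each. The knockdown reagent is not named in the labels used. Each group holds 1 array, so nothing was tested, no value has a replicate error, and what is particular to the clone cannot be told apart from what follows the loss of UGT8. With 1 array of bulk RNA each, a higher share of cells in a cell-cycle phase and more transcript per cell also cannot be told apart. The number of arrays limits the precision.

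Cyclin E1 and cyclin E2 activate CDK2 at the boundary of G1 and S phase. CDC25A removes the inhibitory phosphates from CDK2, and active CDK2 phosphorylates the retinoblastoma family of pocket proteins, to which RBL1 (p107) belongs. Phosphorylated pocket proteins release E2F factors, which bind DNA with a DP partner and drive genes of DNA replication. E2F1, E2F2 and E2F3 are activators, and E2F8 is an atypical member that represses without a DP partner. The E-type cyclin genes, CDC25A, E2F1, E2F2, E2F8 and RBL1 are themselves known E2F targets, so the circuit feeds back on itself.

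Most of the 9 genes were higher on the knockdown array, led by the cyclin E2 gene and CDC25A, whereas the kinase gene CDK2 was nearly level. Values are the deposited log2 values, and a difference is the knockdown value minus the control value. A gene was read once by its brightest probe set (the highest mean of both arrays). The floor was the median level of all probe sets that are not controls, log2 6.64, and all 9 genes lay past it. Of the 9, CCNE2, CDC25A, CCNE1 and E2F1 were at least 2-fold higher, beside 0.738% of the 10439 genes past the floor. With E2F8, 5 were at least 1.5-fold higher, beside 4.96% of genes. None was at least 1.5-fold or 2-fold lower, where 6.74% and 1.54% of genes lay. All 9 brightest readings were above 0, as 53.5% of genes were. Because the genes were chosen on this contrast, nothing is read from these shares. The median difference of the 9 was 0.68 (1.60-fold), and that of all genes past the floor was 0.03. Over single probe sets, 21 of 22 were above 0 (50.6% of all probe sets with 1 symbol), 11 were at least 1.5-fold higher (3.56%) and 7 at least 2-fold higher (0.543%).

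**Figure D1:**
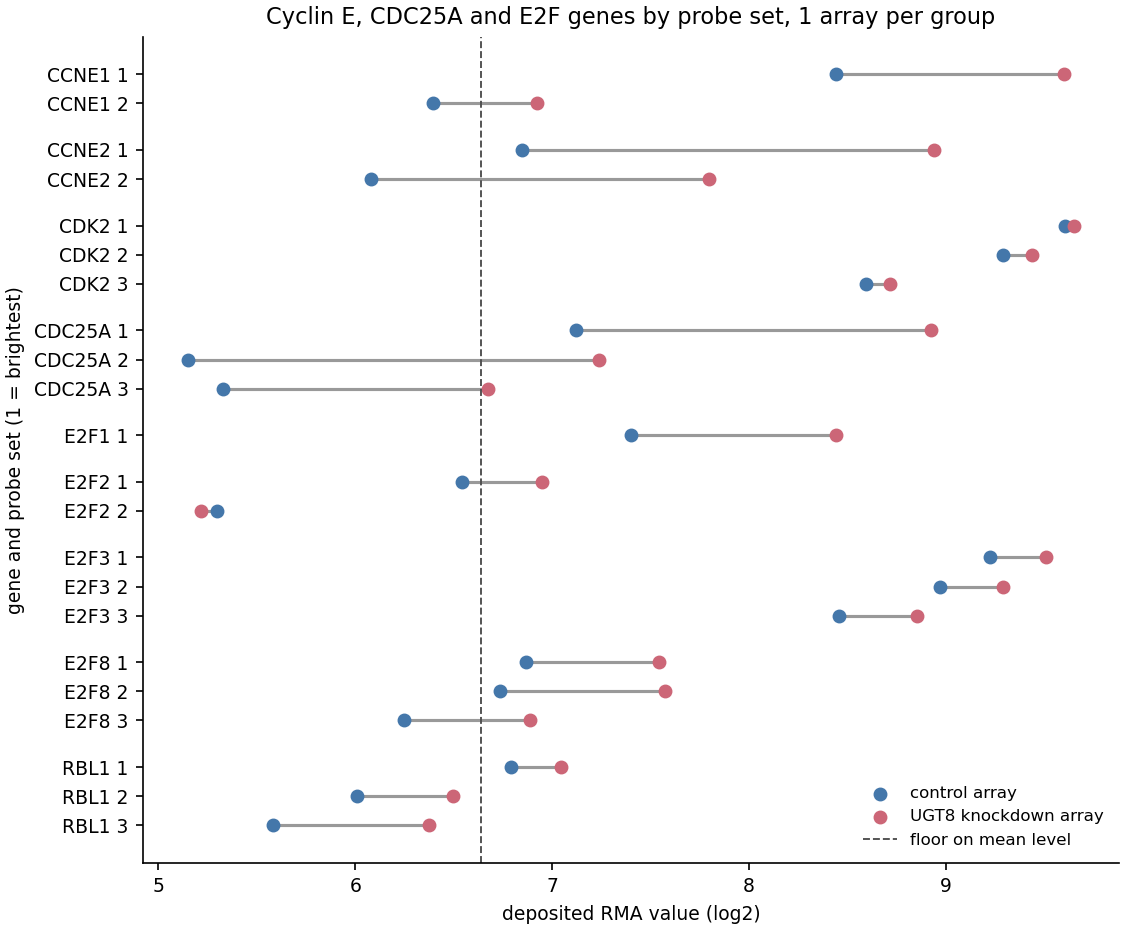
Deposited log2 values of all 22 probe sets of the 9 genes, 1 line per probe set, with the control array in blue, the knockdown array in red and the floor (log2 6.64) dashed. The knockdown point lies to the right of the control point in 21 of 22 lines, with the longest lines in CCNE2 and CDC25A and the shortest in CDK2 and the dimmer E2F2 probe set, and with the hybridisation spike-ins as zero the brightest readings of CDK2, E2F2, E2F3 and RBL1 turn below 0.

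The values depend on the scale in 1 respect. The 18 probe sets for the hybridisation spike-in RNAs had a median difference of 0.51. Taking them as the zero subtracts that amount from each difference and moves the median of all genes from 0.03 to -0.48, so directions below are relative to the typical gene. On that scale CCNE2 (1.58), CDC25A (1.29), CCNE1 (0.65), E2F1 (0.53) and E2F8 (0.16) stayed above 0, and CDK2 (-0.46), E2F2 (-0.11), E2F3 (-0.23) and RBL1 (-0.26) did not. All 9 lay above the median of all genes on both scales, which subtracting the same amount from every gene cannot change. Over all genes, 77 were at least 2-fold higher and 161 lower on the deposited scale (32.4% of these higher). Those counts were 11 and 966 (1.13% higher) on the hybridisation scale and 54 and 196 (21.6% higher) after centring on the poly-A control RNAs, which also turned CDK2 to -0.03.

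Because several of these genes are known E2F targets and were higher together, their promoters were searched for the letters of the E2F site. The windows are those of RefSeq on GRCh38.p14 and run from 250 bases before to 50 bases after a gene start. The table used held 7 windows of 6 of the 9 genes. The 4 words searched, on both strands, were TTTCCCGC, TTTCGCGC, TTTGCCGC and TTTGGCGC. Of 35116 promoter windows of the same length, 3.31% held at least 1 of them. Of 19 other genes that are textbook E2F targets and had a window, 11 held at least 1 too. Among the 6 genes, CDC25A, E2F1, E2F2, E2F3 and RBL1 held at least 1, and CCNE1 held none in this window. The 250 bases before the start are shown for 3 genes that were at least 2-fold higher and for RBL1, which was not, each 5′ to 3′ along the gene with the E2F words in capitals. They lie at chr3:48188418-48188667 on the minus strand for CDC25A, chr20:33686386-33686635 on the minus strand for E2F1, chr19:29811741-29811990 on the plus strand for CCNE1 and chr20:37095998-37096247 on the minus strand for RBL1.
CDC25A: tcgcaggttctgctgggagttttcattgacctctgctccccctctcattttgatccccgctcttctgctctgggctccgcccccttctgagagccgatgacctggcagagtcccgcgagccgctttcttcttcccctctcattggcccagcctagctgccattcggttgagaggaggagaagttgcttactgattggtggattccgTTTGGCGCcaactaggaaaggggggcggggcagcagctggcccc
E2F1: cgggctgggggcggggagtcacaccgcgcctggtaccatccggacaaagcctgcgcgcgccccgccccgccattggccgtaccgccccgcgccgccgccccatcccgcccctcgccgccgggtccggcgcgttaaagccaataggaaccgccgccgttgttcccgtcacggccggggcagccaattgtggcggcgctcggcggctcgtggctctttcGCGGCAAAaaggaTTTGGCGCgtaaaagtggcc
CCNE1: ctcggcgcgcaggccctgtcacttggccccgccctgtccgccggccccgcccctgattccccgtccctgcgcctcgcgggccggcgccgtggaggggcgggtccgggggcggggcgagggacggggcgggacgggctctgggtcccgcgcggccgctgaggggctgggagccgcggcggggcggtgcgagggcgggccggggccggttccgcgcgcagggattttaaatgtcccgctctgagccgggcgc
RBL1: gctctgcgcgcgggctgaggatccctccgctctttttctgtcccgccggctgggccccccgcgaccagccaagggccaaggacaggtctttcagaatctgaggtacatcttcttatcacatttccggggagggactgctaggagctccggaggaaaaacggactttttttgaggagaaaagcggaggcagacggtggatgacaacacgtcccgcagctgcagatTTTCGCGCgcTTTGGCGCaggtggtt

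The E2F words in these windows all lay within 53 bases before the gene start. In CDC25A the word TTTGGCGC began 44 bases before the start. E2F1 held TTTGCCGC on the opposite strand, its match beginning at 33 bases, and TTTGGCGC at 20 bases before the start. RBL1 held TTTCGCGC at 26 bases and TTTGGCGC at 16 bases before the start. Windows with at least 2 matches made up 0.145% of all windows. E2F2 held TTTGGCGC at 42 bases before the start (window chr1:23531184-23531483, minus strand). In E2F3 the upstream of its 2 windows (chr6:20401629-20401928, plus strand) held TTTCCCGC on the opposite strand at 53 bases, and the other held none. TTTGGCGC was thus in 4 of the 6 genes and in 0.652% of all windows.

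The windows differed in their other motifs. The CCAAT box, bound by NF-Y, was in 34.6% of all windows and in those of CDC25A (2 matches), E2F1 (3) and E2F3 (4 in the upstream window). The GC box GGGCGG, bound by SP1, was in 45.0% of all windows, and CCNE1 held 7 matches in a window of 81.0% G and C. E2F1 held 6 in a window of 73.3% G and C, CDC25A held 2, and the E2F3 windows held 1 and 3. E2F2 and RBL1 held none. The CHR element TTTGAA of late cell-cycle genes was in 15.2% of all windows and, among these genes, in the upstream E2F3 window. The array difference was not ordered by the number of E2F words. Over its probe sets CDC25A, with 1 word, differed by 1.34 to 2.09, and RBL1, with 2, by 0.25 to 0.79. CCNE1, with none in its window, differed by 0.53 to 1.16, which overlaps RBL1. E2F1, with 2, differed by 1.04, above E2F2 and E2F3, with 1 each (at most 0.41 and 0.40). Whether the words bear on the differences was not tested. A match is a description of letters and not a bound site.

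**Figure D2:**
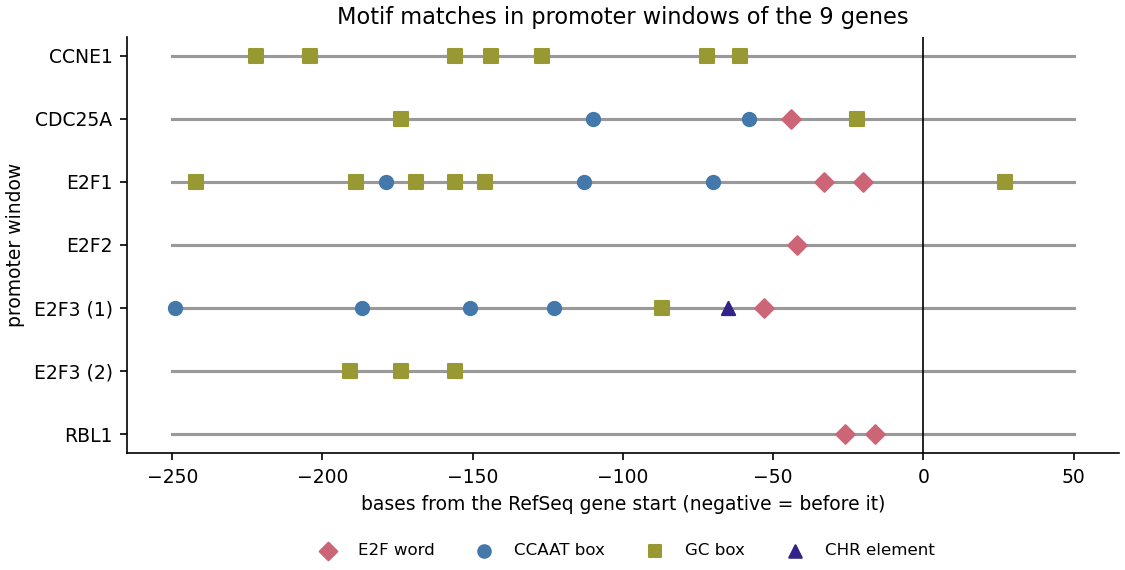
Motif matches in the 7 RefSeq promoter windows of 6 of the 9 genes, by distance in bases from the gene start, each symbol at the first base of a match along the gene. E2F words (diamonds) lie between 53 and 16 bases before the start in CDC25A, E2F1, E2F2, E2F3 and RBL1, and CCNE1 shows 7 GC boxes and no E2F word. GC boxes also lie in the windows of E2F1 (6), CDC25A (2) and E2F3 (1 and 3).

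Both E-type cyclin genes were higher, cyclin E2 more than cyclin E1. The brightest CCNE2 probe set (11728300_at) read 6.85 in control and 8.94 in knockdown cells. That is a difference of 2.09, or 4.26-fold, and 2 of the 10439 genes past the floor were higher by more. The other CCNE2 probe set read 6.08 and 7.80 (1.72, 3.29-fold), so both lay at least 2-fold higher. The control value of this dimmer probe set lay under the floor, so that it passed the floor through the knockdown array. The brightest CCNE1 probe set (11724407_s_at) read 8.44 and 9.60, a difference of 1.16 or 2.24-fold. The dimmer CCNE1 probe set read 6.39 and 6.92 (0.53, 1.44-fold), below both fold thresholds, and it too passed the floor only through the knockdown array. The SD of the CCNE1 difference over its 2 probe sets was 0.45. The median SD between probe sets of 1 gene was 0.08 over 6067 genes. The SDs of CDC25A (0.38), E2F2 (0.35), RBL1 (0.27), CCNE2 (0.26) and E2F8 (0.11) also lay above it. Those of E2F3 (0.06) and CDK2 (0.05) lay below it. The 2-fold count of CCNE1 rests on 1 probe set with the suffix _s_at. By the usual Affymetrix naming, this suffix marks probes that can match transcripts of other genes. The highest CCNE1 reading (1.16) lay below the lowest CCNE2 reading (1.72).

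CDK2, the kinase that both cyclins activate, was near level at high signal. Its 3 probe sets read 9.60, 9.29 and 8.59 in control cells and 9.65, 9.44 and 8.72 in knockdown cells. The differences were 0.05, 0.15 and 0.12. On the deposited scale the CDK2 transcript thus differed by at most 1.11-fold, and those of the E-type cyclins by 1.44-fold to 4.26-fold. On the hybridisation scale the brightest CDK2 reading was -0.46. By its brightest probe set, 47.4% of genes past the floor had a higher signed difference than CDK2. CDK1, the mitotic kinase that CDC25 phosphatases also activate, differed by -0.02.

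CDC25A was higher in each of its 3 probe sets. The brightest (11726757_s_at) read 7.12 in control and 8.92 in knockdown cells, so it differed by 1.80 or 3.49-fold. The second read 5.15 and 7.24 (2.09, 4.26-fold) and the third 5.33 and 6.67 (1.34, 2.54-fold). Both of these lay below the floor on mean level, and their control readings lay 0.42 and 0.60 above the mean of the background probe sets (4.73). The brightest, the only CDC25A probe set past the floor, has the suffix _s_at, so its probes too can match transcripts of other genes. Without _s_at and _x_at probe sets CDC25A had no reading past the floor. The other CDC25 phosphatases stood apart from it in size. CDC25B, which acts at entry into mitosis, read 10.65 and 10.42 (-0.23), and CDC25C, also mitotic, read 7.99 and 8.02 (0.03). The gap between CDC25A and its paralogs was 2.03 against CDC25B and 1.77 against CDC25C.

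Among the activator E2F genes, E2F1 differed most. Its single probe set (11723713_at) read 7.40 in control and 8.44 in knockdown cells, so it differed by 1.04 or 2.05-fold, just past the 2-fold threshold. After centring on the poly-A controls that difference was 0.96, below it. E2F2 read 6.54 and 6.95 by its brighter probe set (0.41, 1.33-fold), with the control value under the floor, so that it passed the floor through the knockdown array. The dimmer E2F2 probe set read 5.30 and 5.21 (-0.08), the only 1 of the 22 that was lower on the knockdown array, and both of its values lay under the floor. E2F3 was bright in all 3 probe sets, which read 9.23, 8.97 and 8.46 in control cells and 9.51, 9.29 and 8.86 in knockdown cells. Its differences of 0.28, 0.32 and 0.40 spanned 0.12, so its probe sets were close together and all were under 1.5-fold. All 3 have the suffix _s_at, as has the brighter E2F2 probe set, so their probes can match transcripts of other genes. E2F1 thus exceeded the highest reading of E2F2 (0.41) and of E2F3 (0.40).

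The atypical E2F8 was higher in each of 3 probe sets and its partner in function, E2F7, was not. E2F8 read 6.87, 6.73 and 6.25 in control cells and 7.54, 7.57 and 6.89 in knockdown cells. Its differences were 0.68, 0.84 and 0.64 (1.60-fold, 1.79-fold and 1.56-fold), all past 1.5-fold and none past 2-fold. The third of these probe sets lay below the floor on mean level, with its control value under the floor. E2F7, the other atypical repressor, read 10.06 and 9.98 (-0.08). Of the remaining E2F genes, the repressors E2F4 (8.96 and 9.23, 0.27) and E2F6 (8.10 and 8.43, 0.33) were slightly higher and E2F5 (10.17 and 9.82, -0.35) was lower. On the hybridisation scale E2F4 and E2F6, like E2F2 and E2F3, lie below 0, because their differences are smaller than 0.51.

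RBL1 was higher by unequal amounts in its probe sets. Its brightest probe set (11740383_at) read 6.79 in control and 7.04 in knockdown cells (0.25, 1.19-fold). The others read 6.01 and 6.50 (0.49, 1.40-fold) and 5.58 and 6.37 (0.79, 1.73-fold), with both arrays under the floor. The larger differences were thus in the dimmer probe sets, and the mean over all 3 was 0.51 ± 0.27 (SD, n = 3 probe sets on the same arrays, which are not replicates). RBL2 (p130), the pocket protein of resting cells, was lower, at 9.36 and 8.88 (-0.48), and lower in all 4 of its probe sets. RB1, the retinoblastoma gene, read 8.60 and 8.88 (0.28).

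In order of their brightest readings the genes ran CCNE2, CDC25A, CCNE1, E2F1, E2F8, E2F2, E2F3, RBL1 and CDK2. The ranges over probe sets overlapped between neighbours for CCNE2 and CDC25A, for CCNE1 and E2F1, for E2F2 and E2F3, and for E2F3 and RBL1, so the order within these pairs is not settled. They did not overlap between CDC25A and CCNE1, E2F1 and E2F8, E2F8 and E2F2, or RBL1 and CDK2, though E2F1 is a single reading. Genes further apart in the order overlapped too: CCNE1 (0.53 to 1.16) with E2F8 (0.64 to 0.84), RBL1 (0.25 to 0.79) with CCNE1, E2F8 and E2F2, and E2F2 (-0.08 to 0.41) with CDK2 (0.05 to 0.15). CCNE2 and CDC25A thus lay above the other 7 genes in every probe set, and the order among those 7 is settled only in part. Among all genes past the floor, CCNE2 had rank 3, CDC25A rank 4, CCNE1 rank 42, E2F1 rank 63 and E2F8 rank 331 from the highest difference. With 2 arrays a pattern is a single difference, so likeness between genes is only nearness in size. The 3 genes nearest to CCNE2 were the histone gene H2AC6 (2.28), CDC25A (1.80) and the linker histone gene H1-2 (2.51). Nearest to CDC25A were TIPIN (1.62), H2BC12 (1.60) and RIMS2 (1.59).

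**Figure D3:**
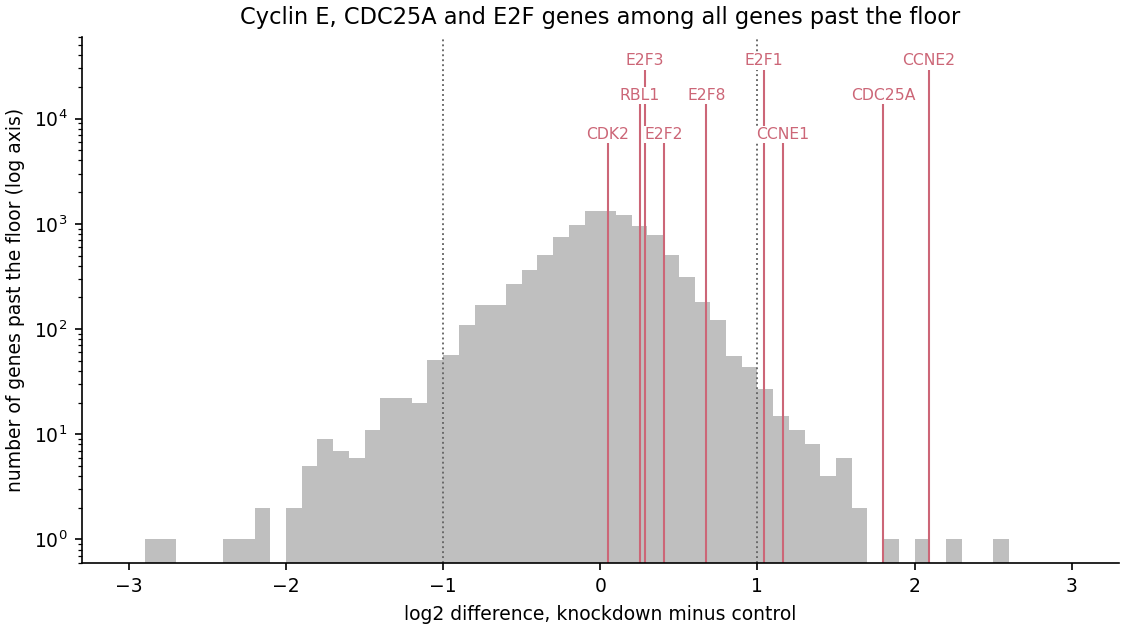
Histogram of the log2 difference, knockdown minus control, over the 10439 genes past the floor, with a log count axis, dotted lines at 2-fold and the 9 genes marked by their brightest probe sets. CCNE2 (2.09) and CDC25A (1.80) stand at the right end and CDK2 (0.05) at the centre, and with the hybridisation spike-ins as zero all values shift left by 0.51.

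The lists of direct partners had lower medians than the 9 genes on both scales. Single partners still differed by more than some of the 9. A list of 14 other genes covered E2F, DP and pocket proteins and subunits of DREAM, the complex that represses cell-cycle genes in resting cells. Of these, 12 lay past the floor, with a median of 0.31. Above 0 were 9 of the 12, beside 53.5% of all genes. At least 1.5-fold higher were 2 (4.96% of all genes), and none was 1.5-fold lower (6.74%). The 2 were the DP genes, which encode the DNA-binding partners of E2F factors: TFDP1 read 10.38 and 11.13 (0.75) and TFDP2 read 7.73 and 8.35 (0.61). On the hybridisation scale the median of this list was -0.21. The list beside CDK2 and CDC25A held 17 genes, for cyclins, kinases, phosphatases, inhibitors and other associated factors (MNAT1, CKS1B, CKS2 and NPAT). All lay past the floor, with a median of -0.07, and none was 1.5-fold higher (4.96% of all genes). On the hybridisation scale the median of these 17 was -0.58, and that of the 9 genes was 0.16. Lower by 1.5-fold were 3 of the 17, beside 6.74% of all genes. These were the cyclin gene CCNA1 (7.43 and 6.54, -0.89), the inhibitor gene CDKN1C (10.19 and 9.43, -0.76) and the kinase gene CDK3 (7.82 and 7.16, -0.66). The other CDK2 cyclin, CCNA2, differed by -0.04, and the CDK2 inhibitor genes CDKN1A (p21) and CDKN1B (p27) by -0.07 and -0.32. Cyclin E was thus higher without a like difference in cyclin A2.

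Genes of protein turnover and of the step upstream of cyclin E had 1 gene each past 1.5-fold. Over all genes past the floor, 4.96% were at least 1.5-fold higher and 6.74% at least 1.5-fold lower. Of 13 ubiquitin ligase subunits and deubiquitinases known for cyclin E, CDC25A, E2F1 or p27, 12 lay past the floor, with a median of 0.09. FBXW7, the ligase subunit that marks phosphorylated cyclin E for degradation, was the 1 past 1.5-fold, at 8.94 and 8.23 (-0.72). It was lower in all 3 of its probe sets. SKP2, the ligase subunit for p27, lay below the floor on mean level and read 6.14 and 6.86 (0.73). Of the 9 genes for D-type cyclins, their kinases and the INK4 inhibitors, 6 lay past the floor with a median of 0.23, and CDK4 was higher, at 10.16 and 10.83 (0.67). On the hybridisation scale these list medians were -0.43 and -0.28, where the median of all genes was -0.48.

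The E2F target genes other than the 9 were higher as a list, and the G2/M genes were not. Of 23 textbook targets, 21 had a probe set with 1 symbol and 20 lay past the floor. All 20 were above 0 (53.5% of all genes), 15 were at least 1.5-fold higher (4.96%) and 4 at least 2-fold higher (0.738%), with a median of 0.73. The 4 were the origin licensing gene CDC6 (9.51 and 10.76, 1.24), the helicase gene MCM4 (8.93 and 10.17, 1.24), the methylation maintenance gene UHRF1 (9.25 and 10.34, 1.09) and the ribonucleotide reductase gene RRM2 (9.90 and 10.98, 1.07). Averaged over all probe sets of each gene, the differences were 0.68 for UHRF1, 1.36 for MCM4, 1.27 for RRM2 and 1.26 for CDC6. By brightest probe sets, CCNE2 and CDC25A lay above each of these targets, E2F1 and CCNE1 within the range of the list. The other 5 genes lay below its median. The lowest CDC25A probe set (1.34) lay below the MCM4 mean. On the hybridisation scale the target median was 0.22. The 15 G2/M genes had a median of 0.03, near that of all genes. Of these, 1 was at least 1.5-fold higher, beside 4.96% of all genes: the transcription factor gene FOXM1 (8.29 and 8.89, 0.60). These lists were chosen with earlier results of these arrays known and are no independent evidence.

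**Figure D4:**
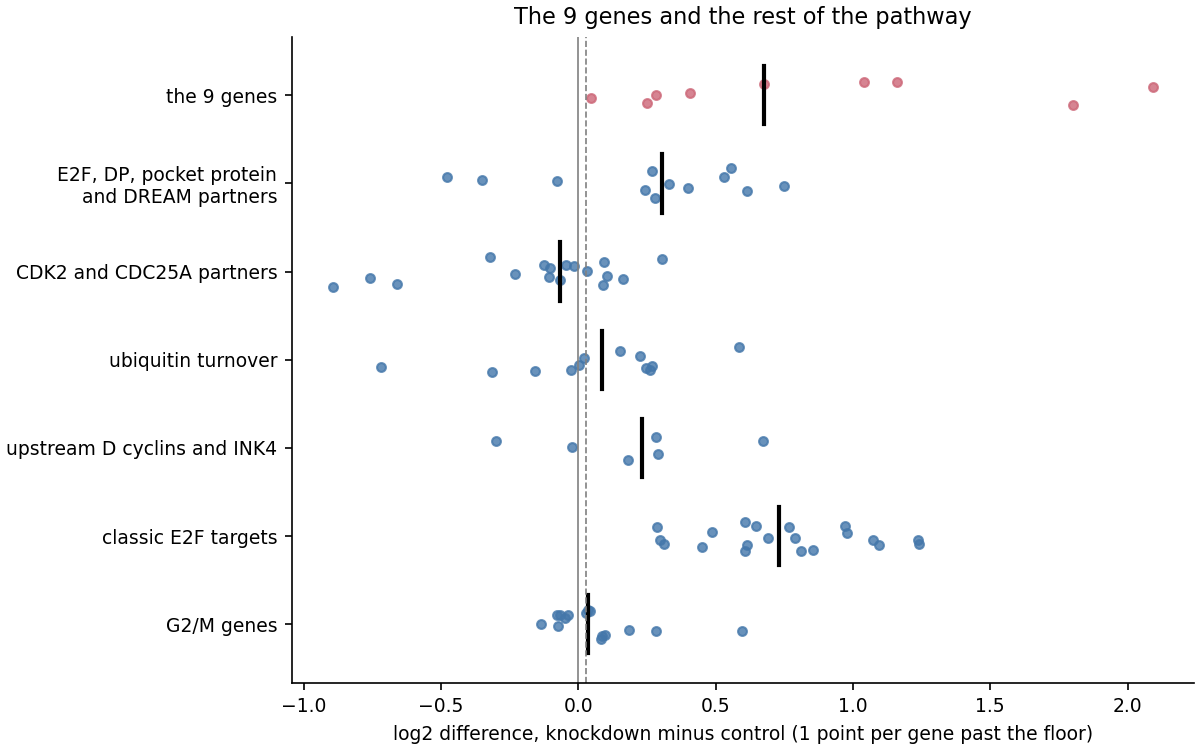
Log2 difference, knockdown minus control, of each gene past the floor in 7 lists, 1 point per gene read by its brightest probe set, with the list median as a black bar, 0 as a solid line and the median of all genes (0.03) dashed. The 9 genes (median 0.68) and the classic E2F targets (0.73) lie to the right, and the G2/M genes (0.03) and the CDK2 and CDC25A partners (-0.07) lie near 0. With the hybridisation spike-ins as zero each point shifts left by 0.51.

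Checks of the arrays touch these results as follows. UGT8 was lower on the knockdown array in all 3 probe sets, the brightest reading 8.95 and 6.61 (-2.34, 19.7% of control). Both arrays had a median of 6.64. The difference between the 3' and 5' probe sets of ACTB, a reading of RNA quality, was 0.49 in control and 0.90 in knockdown RNA, and that of GAPDH was 0.18 and 0.19. The part of this in the differences of the 9 genes was not tested. Of markers of the line, VIM, CD44, FN1 and EGFR were past the floor on both arrays. ESR1 and PGR lay below the floor, whereas ERBB2 (8.56 and 8.73) and CDH1 (8.01 and 7.66), which this line is known to express weakly or not at all, lay past it. All 6 measured markers of leukocytes, endothelium and fibroblasts had means under the floor. The fibroblast marker gene PDGFRB read above the floor in control cells and 6.25 in knockdown cells, a difference of -0.75. The endothelial gene VWF read 6.42 and 6.26 and the lymphocyte gene CD3E 5.67 and 5.64, above the mean of the background probe sets (4.73). PTPRC (3.56 and 3.40), CDH5 (4.61 and 4.61) and the fibroblast gene DCN (4.60 and 4.11) lay under it. The part of these genes in the differences of the 9 was not tested.

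**Figure D5:**
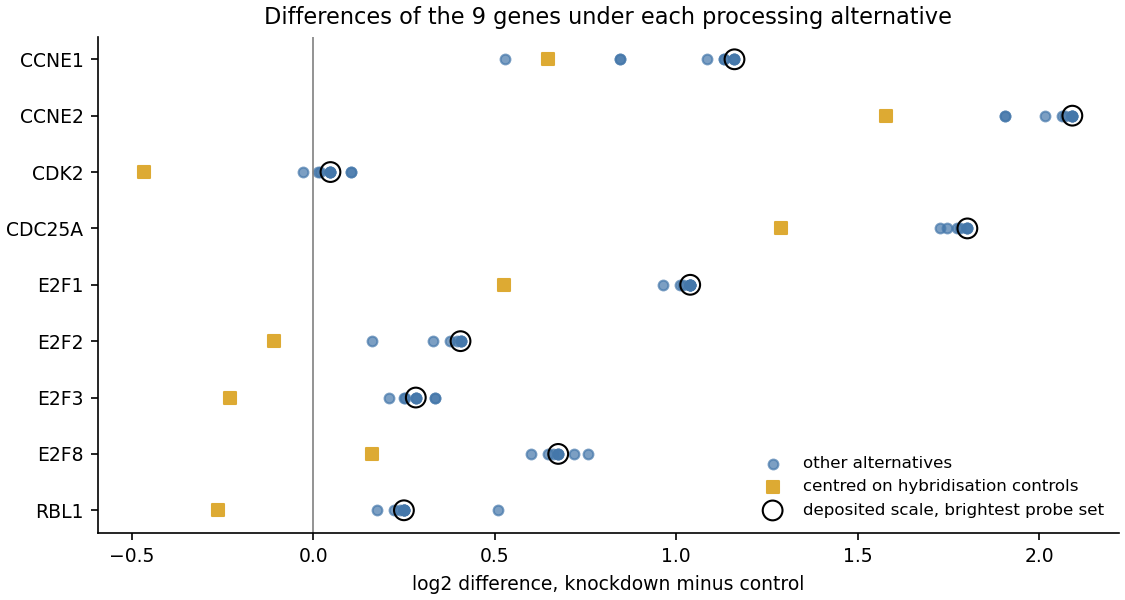
Log2 difference, knockdown minus control, of each of the 9 genes under every processing alternative that could read it, with the main setting as an open circle and centring on the hybridisation controls as a square. CCNE2 (1.58 to 2.09) and CDC25A (1.29 to 1.80) stay to the right of all other genes, and the squares of CDK2, E2F2, E2F3 and RBL1 fall below 0, as does 1 further point of CDK2 (-0.03, poly-A controls).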

How the data were processed

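Total RNA of 2 cultures was measured on 2 Affymetrix arrays, 1 per group, and groups follow the genotype labels. The authors deposited log2 values made with RMA, per the submitters' processing notes. RMA corrects background, normalizes between arrays and summarises each probe set, and normalizing removes any shift shared by most transcripts. For the software version and the genome build, the sources used here give nothing. Values ran from 2.67 to 14.4.

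Gene names came from the platform annotation, updated to RefSeq symbols by gene ID (18201 of 18244 found, 99.8%). Of 49495 probe sets, 102 were controls, 1333 had several symbols and 2782 had none, and these were not used for genes. Differences, counts and medians were computed with Python 3.11.15, pandas 2.3.3 and statsmodels 0.14.6, and the steps were checked on simulated differences. The 9 genes and all lists were chosen with earlier results of these data known. Named besides the 9 were 16 preset partners, UGT8, up to 4 genes per list past 1.5-fold, the 3 genes nearest in difference to CCNE2 and to CDC25A, and markers. CDK1 was named after its value was seen. Alternatives changed the fold threshold, floor, probe set rule and centring.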

Additional observations from a re-analysis of the deposited data

How the results depend on the processing

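No replicate could be left out, and no paired analysis was possible because each group holds 1 array. Of the 9 genes, 4 were at least 2-fold higher. That count was 3 after averaging of probe sets or poly-A centring, and 2 at 3-fold, after centring on the hybridisation controls, without _s_at and _x_at probe sets (added after seeing the data) and without _a_at, _s_at and _x_at ones. With the floor at the 75th percentile it was 1. The last 3 settings leave 6, 3 and 3 of the 9 genes past the floor. The median of the 9 (0.68) was 0.28 with the 75th percentile floor, 1.04 without _a_at, _s_at and _x_at probe sets and 0.16 on the hybridisation scale. The target median (0.73) was 0.61 without those probe sets and 0.22 on the hybridisation scale. Of all genes, 77 were 2-fold higher and 161 lower. These counts were 518 and 704 at 1.5-fold, 7 and 29 at 3-fold, 21 and 84 with the 75th percentile floor, 23 and 61 without _a_at, _s_at and _x_at probe sets, and 11 and 966 on the hybridisation scale. The higher count was 118 with no floor and 117 with the 25th percentile floor, and the lower count was 107 after averaging over all probe sets. CCNE1 differed by 0.84 after averaging and 0.53 without _s_at and _x_at probe sets, E2F2 by 0.16 and RBL1 by 0.51 over all their probe sets. Changes with fewer genes or another threshold follow from those settings, and for the rest the cause was not tested. Signal near background limits the dimmer CDC25A, E2F2 and RBL1 probe sets. The dimmer CCNE1 and CCNE2 probe sets had control values under the floor, and the dimmest E2F8 probe set lay below it on mean level.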

Other observations

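Across the genes past the floor with a RefSeq promoter window, a larger share was higher among those with an E2F word than among those without. Of 596 genes with a word, 5 of the 9 genes among them, 9.23% were at least 1.5-fold higher and 3.52% at least 1.5-fold lower, with a median difference of 0.09. Of 8092 genes without one, 4.40% were higher and 6.61% lower, with a median of 0.03. By word, 19 of the 127 genes with TTTGGCGC and 13 of the 98 with TTTCGCGC were at least 1.5-fold higher, as were 23 of the 300 with TTTCCCGC and 6 of the 94 with TTTGCCGC. For the CCAAT box the shares higher were 4.50% with and 4.91% without, and the shares lower 6.93% and 5.99%. For the CHR element the shares higher were 4.81% and 4.72%, and the shares lower 8.52% and 6.06%. For the GC box the shares higher were 4.33% with and 6.18% without, and the shares lower 6.15% and 7.29%. These are descriptions of 1 pair of arrays, genes are not independent replicates, and the shares were not tested.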
